A study of Mus musculus with 2 samples.

Results

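The adaptors and kinases that carry signals from Toll-like receptors are represented here by 10 named genes out of 21911 mouse protein-coding genes with a record on the assembled chromosomes. They were taken by name and not by a rule on measured values, although earlier results of these data were known when they were chosen. They were examined for trimethylation of histone H3 at lysine 36 (H3K36me3). The adaptors are Myd88, Tirap and Ticam1, and the kinases and their ubiquitin ligase are Irak2, Irak3, Irak4, Traf6, Map3k7, Tbk1 and Ikbke. The assay was ChIP-seq, the sequencing of DNA recovered with an antibody to the mark, on macrophages that had been cultured from bone marrow of C57BL/6J mice and left without any stimulus. The series has 1 group of 2 biological replicates, each a library made from 10 ng of DNA with fragments of 350 to 480 bp. Both replicates carry the same donor record, and neither sex nor age was collected, so the spread between them may be partly technical. With 1 group there is no treated or mutant condition to compare and no test across samples, so every value is given for each replicate, as peaks in that replicate's own deposited list.

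Toll-like receptors pass their signal through adaptor proteins that bind the receptor's inner domain. MyD88, brought to the membrane by TIRAP at some receptors, assembles IRAK4 and IRAK2 into a complex that activates the ubiquitin ligase TRAF6 and the kinase TAK1 (gene Map3k7), and from there NF-κB and MAP kinases. IRAK3, also called IRAK-M, is known as a brake on this complex in macrophages. TRIF (gene Ticam1), the adaptor of TLR3 and of internalised TLR4, engages the kinases TBK1 and IKKε (gene Ikbke), which phosphorylate IRF3 and lead to type I interferon. TRAF6 and TAK1 serve both routes. Accordingly the MyD88 arm was taken as Myd88, Tirap, Irak2, Irak3 and Irak4, and the TRIF arm as Ticam1, Tbk1 and Ikbke, while Traf6 and Map3k7 were kept apart as shared genes. H3K36me3 is laid down along transcribed gene bodies by SETD2, which travels with elongating RNA polymerase II, and it is usually sparse at the gene start and denser toward the end.

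To show where the peaks lay on the genes, 200 bases under peaks of both replicates are given for Irak4, the MyD88-arm gene with the most coverage, and for all 3 TRIF-arm genes. The build is GRCm38.p6 (mm10), each sequence runs 5′ to 3′ along its gene's strand, and capitals mark coding exon bases, with intron bases in lower case.
Irak4 chr15:94554666-94554865, plus strand: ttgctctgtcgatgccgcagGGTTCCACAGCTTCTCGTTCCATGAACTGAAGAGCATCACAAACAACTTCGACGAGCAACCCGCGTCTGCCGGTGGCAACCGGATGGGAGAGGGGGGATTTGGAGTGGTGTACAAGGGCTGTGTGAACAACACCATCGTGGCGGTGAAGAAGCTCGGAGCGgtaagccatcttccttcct
Ticam1 chr17:56271763-56271962, minus strand: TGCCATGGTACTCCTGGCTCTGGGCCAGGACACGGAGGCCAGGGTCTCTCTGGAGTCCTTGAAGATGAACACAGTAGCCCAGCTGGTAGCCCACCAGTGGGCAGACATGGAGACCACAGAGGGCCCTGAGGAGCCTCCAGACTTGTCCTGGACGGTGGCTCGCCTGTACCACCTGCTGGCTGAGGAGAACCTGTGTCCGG
Tbk1 chr10:121576239-121576438, minus strand: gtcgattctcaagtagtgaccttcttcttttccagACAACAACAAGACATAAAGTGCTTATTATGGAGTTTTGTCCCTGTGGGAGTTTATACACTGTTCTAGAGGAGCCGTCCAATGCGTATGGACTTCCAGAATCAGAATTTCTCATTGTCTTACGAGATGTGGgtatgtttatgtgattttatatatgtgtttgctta
Ikbke chr1:131269744-131269943, minus strand: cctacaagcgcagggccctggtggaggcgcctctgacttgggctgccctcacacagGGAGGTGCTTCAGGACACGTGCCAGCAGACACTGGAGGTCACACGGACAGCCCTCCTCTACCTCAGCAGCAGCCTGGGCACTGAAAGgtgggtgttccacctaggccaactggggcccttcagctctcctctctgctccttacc
The Irak4 window holds exon 5 of 12, with 161 coding bases, a GC content of 56.5% and 13 CpG dinucleotides. The Ticam1 window lies wholly within exon 2 of 2 (200 coding bases, GC 62.5%). The Tbk1 window holds exon 4 of 21 (130 coding bases) and, at 38.5% GC, is the poorest in GC of the 4. The Ikbke window holds exon 13 of 22 (87 coding bases, GC 63.5%). All 4 windows lay inside the transcribed body, away from the gene start, and every base of each was under a peak in both replicates.

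The 2 peak lists differ in size, which bears on every value below. Replicate 1 has 32098 peaks over 28.5 Mb and replicate 2 has 58505 peaks over 79.4 Mb. Read counts are absent from these lists, and depth is therefore unknown and counting intervals cannot be given. A gene without a peak was below detection in that list and was not shown to lack the mark. In such bulk material, fewer cells carrying the mark and less mark per cell cannot be told apart. Of 10 macrophage marker genes, 5 were covered over at least 20% of the gene body in both replicates and 9 in replicate 2, while Mpeg1 had no peak. All 5 T cell, all 5 B cell and all 5 fibroblast markers had no peak in either replicate. Over all coding genes, 7.62% were covered over at least 20% in both replicates and 23.3% in replicate 2, while 61.4% had no peak in either. Of 5 neutrophil markers only Csf3r, which cells of the monocyte lineage also express, had peaks (22.8% and 68.2% of the body), and the granule and surface genes Ly6g, Mpo, Elane and S100a8 had none.

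Peaks in both replicates were found in 9 of the 10 genes, all but Myd88. Among all coding genes, 28.8% had a peak in both. That share depended on length: 11% under 10 kb, 35.3% at 10 to 20 kb, 42.9% at 20 to 50 kb and 43.5% at 50 to 100 kb. The median length was 31.7 kb for the 10 genes and 17.4 kb for all coding genes. The measure used below is the covered share, the percent of a gene's body (annotated start to end over all transcripts) that lies under peaks. It gives the breadth of called peaks relative to gene length, and not the amount of the mark. At least 20% of the body was covered in both replicates in 3 of the 10 genes, Irak4, Tbk1 and Ikbke, against 7.62% of all coding genes. The same 3 genes reached 20% in replicate 1, against 7.65% of coding genes. In replicate 2, 9 of the 10 reached it, all but Irak3, against 23.3% of coding genes. The median of the 10 genes was 13.9% in replicate 1 and 31.9% in replicate 2, and over all coding genes it was 0% in each. Among the 6304 coding genes with a peak in both replicates the medians were 10.9% and 33.8%, so the 10 genes lay near the middle of genes with detected mark. Just above the 20% limit in replicate 1 were Irak4 at 21.4% and Ikbke at 22.2%, and just below it was Tirap at 18.6%.

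**Figure D1:**
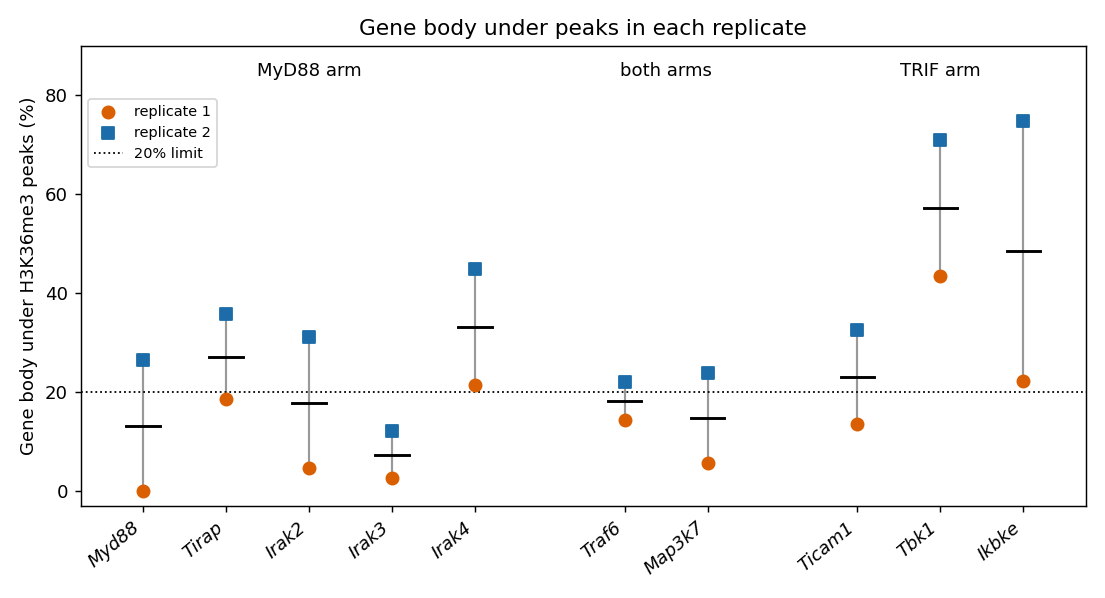
Percent of each gene body under H3K36me3 peaks (vertical axis) for the 10 genes, grouped by arm. Circles are replicate 1, squares replicate 2, the bar is their mean and the dotted line the 20% limit; replicate 2 lies above replicate 1 in every gene, and only Irak4, Tbk1 and Ikbke have both points above the line.

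The gene of the central adaptor, Myd88 (ENSMUSG00000032508, chr9:119335934-119341411, minus strand, 6 exons in the longest coding transcript), had no peak in replicate 1 and 26.5% of its 5.48 kb body covered in replicate 2. That single peak, at chr9:119336512-119337960, lay 3.45 to 4.90 kb from the annotated start, over exons 4 to 6, with a deposited enrichment of 4.34. Enrichment is the authors' ratio of a peak over their caller's background, and with the −log10 q it serves here only to describe peaks within a list. The mean was 13.2 ± 18.7% (SD, n = 2). With 1 of the 2 values at 0% the SD always exceeds the mean, so it adds nothing beyond the missing peak in replicate 1.

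The Myd88 record is compound. An alternative transcript carries the annotated start upstream, across 31.7% of the record shared with Acaa1a, a peroxisomal thiolase gene on the other strand, and the whole gene lies inside a long record of Slc22a14. The 4.11 kb longest coding transcript was at 0% in replicate 1 and at 35.3% in replicate 2. The 5 kb upstream of the Myd88 record were not covered in replicate 1 and were covered over 61.7% in replicate 2, and Acaa1a itself had 7.60% and 56.3%. ChIP-seq peaks have no strand, so mark on bases shared by overlapping genes cannot be assigned to either.

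Tirap (ENSMUSG00000032041, chr9:35184551-35200291, minus strand), the bridging adaptor of TLR2 and TLR4, had 18.6% of its body covered in replicate 1 and 35.8% in replicate 2 (27.2 ± 12.2%, SD, n = 2). The first of its 5 peaks in replicate 1 and 3 in replicate 2 began 6.84 and 8.03 kb from the start of the 15.7 kb gene, and the stretch before them was uncovered. In replicate 2 a single peak of 4.29 kb (chr9:35187966-35192258, enrichment 5.73) spanned exons 3 to 6. Of the bases covered in replicate 1, 90.4% were also covered in replicate 2. Exons 5, 6 and 7 carried peaks in both lists. Its neighbours are Srpr, which overlaps Tirap by 117 bp at its start (15.7% and 22.3%), and Foxred1, 3914 bp away (54.9% and 67.2%).

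Irak4 (ENSMUSG00000059883, chr15:94543643-94581815, plus strand), the kinase that MyD88 recruits first, was the most covered gene of the MyD88 arm, with 21.4% in replicate 1 and 44.8% in replicate 2 (33.1 ± 16.6%, SD, n = 2). It held 10 and 8 peaks, beginning 5.18 and 3.31 kb from the start. In replicate 2, adjacent peaks of 3.65 and 4.64 kb covered exons 2 to 5 nearly without a break, with enrichments of 6.08 and 5.38. The covered bases of replicate 1 lay in those of replicate 2 for 88.8%. The far end of the Irak4 record overlaps Twf1, a twinfilin gene on the opposite strand with 46.7% and 53.2% of its own body covered, over 3865 bp (10.1% of Irak4). Without the bases inside the longest coding transcript of Twf1, Irak4 had 19.7% and 44.7%, so that it fell just under the 20% limit in replicate 1. On its longest coding transcript of 24.7 kb, which ends before Twf1, it had 27.5% and 57.2%. Pus7l, 95 bp upstream on the other strand, had no peak in either replicate.

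Irak2 (ENSMUSG00000060477, chr6:113638467-113695026, plus strand), the kinase that sustains signalling downstream of IRAK4, was covered over 4.56% in replicate 1 and 31.2% in replicate 2 (17.9 ± 18.9%, SD, n = 2). The ratio of replicate 2 to replicate 1, 6.85, was the highest among the 9 genes with a peak in both. There were 4 peaks in replicate 1 and 15 in replicate 2. All 4 peaks of replicate 1 touched peaks of replicate 2, which held 96.7% of their bases. They formed a block from 32.9 to 35.8 kb around exons 5 and 6, and 1 separate peak at 46.9 to 47.6 kb. The block also held the strongest peak of each list in this gene (enrichment 4.61 and 6.08). Replicate 2 alone added peaks from 8.49 kb, at exon 2, and out to exon 13. Tatdn2, 2023 bp past the end on the same strand, had 28.5% and 50.4%.

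Irak3 (ENSMUSG00000020227, chr10:120141648-120202130, minus strand), the inhibitory pseudokinase, was the least covered gene by its mean, with 2.67% in replicate 1 and 12.1% in replicate 2 (7.37 ± 6.64%, SD, n = 2). Its 2 peaks in replicate 1 and 4 of 7 in replicate 2 fell in a block 25.4 to 30.8 kb from the start, around exon 5. Both peaks of replicate 1 touched replicate 2, with 96.0% of their bases shared. In replicate 2, 3 further peaks lay from 55.4 to 58.6 kb, around exons 9 to 11, after an uncovered gap of 24.6 kb. The strongest of them, at chr10:120146246-120146717, had an enrichment of 5.21 and a −log10 q of 10.4, above those of the block that both replicates share. Tmbim4, which overlaps the start by 541 bp, had 0% and 17.8%.

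**Figure D2:**
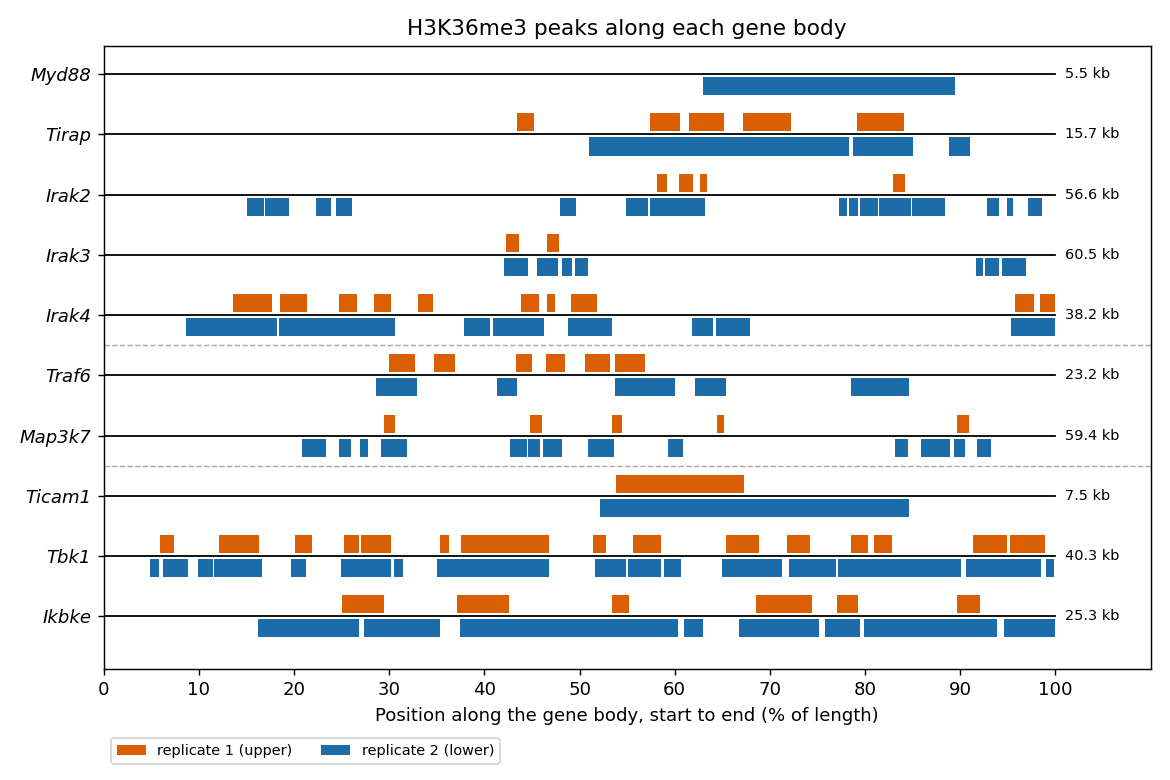
Peaks of replicate 1 (above each line) and replicate 2 (below) along the 10 gene bodies, drawn from the annotated start at 0% to the end at 100%, with each gene's length at the right; dashed lines part the MyD88 arm (top), the shared genes and the TRIF arm. Peaks begin away from the start in every gene, Tbk1 has peaks along its whole length in both replicates, and Irak3 has a block near its end only in replicate 2.

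Of the genes that serve both arms, Traf6 (ENSMUSG00000027164, chr2:101678429-101701669, plus strand) had 14.4% in replicate 1 and 22.1% in replicate 2 (18.3 ± 5.43%, SD, n = 2). It had the closest covered shares in the 2 replicates, with a ratio of 1.53, but its peaks lay at different positions. Only 41.4% of the bases covered in replicate 1 were covered in replicate 2, and 3 of 6 peaks of replicate 1 touched none of replicate 2. Its strongest peak in replicate 2, at chr2:101696689-101698098 within exon 8 (enrichment 4.34, −log10 q 7.24), had no counterpart in replicate 1. In the authors' pooled list 36.7% of Traf6 was covered, and in their replicated list 39.4%, more than in either replicate alone.

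Map3k7 (ENSMUSG00000028284, chr4:31964097-32023467, plus strand), which encodes the kinase TAK1, had 5.58% and 23.8% (14.7 ± 12.9%, SD, n = 2). Its 5 peaks in replicate 1 and 13 in replicate 2 began 17.5 and 12.4 kb from the start of the 59.4 kb body. Of the bases covered in replicate 1, 60.1% were covered in replicate 2. The peaks lay mostly in introns: 0.815% of the covered bases in replicate 1 and 7.22% in replicate 2 were exonic, where exons make up 10.8% of the body. In this gene the covered share of exons was below that of introns in both replicates (0.420% against 6.20% in replicate 1, and 15.9% against 24.8% in replicate 2).

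In the TRIF arm the adaptor gene Ticam1 (ENSMUSG00000047123, chr17:56269319-56276786, minus strand, 2 exons) had 13.5% in replicate 1 and 32.5% in replicate 2 (23.0 ± 13.5%, SD, n = 2). Each replicate had 1 peak, at chr17:56271763-56272768 (enrichment 3.66) and chr17:56270464-56272891 (enrichment 4.51), and the first lay wholly inside the second. They began 4.02 and 3.90 kb from the start and ran from the end of the only intron into exon 2, which carries the printed window. Plin3, a lipid droplet coat gene 689 bp upstream on the same strand, had 12.7% and 39.7%.

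Tbk1 (ENSMUSG00000020115, chr10:121546455-121586787, minus strand, 21 exons), the kinase that phosphorylates IRF3, had 43.6% in replicate 1 and 71.0% in replicate 2 (57.3 ± 19.4%, SD, n = 2), the highest mean of the 10. Its 15 and 16 peaks reached into each of 10 equal bins of the 40.3 kb body in both replicates, and no other gene of the set had that. All 15 peaks of replicate 1 touched replicate 2, with 95.6% of their bases shared. The first peak began 2.39 and 1.96 kb from the start, the shortest distance of the 10 genes in each replicate, and the last ended 459 and 43 bp before the gene end. The strongest member peak of replicate 2 lay here, at chr10:121567917-121572671 over exons 5 to 7 (enrichment 6.95, −log10 q 18.0). Among all coding genes Tbk1 stood at the 99.1 percentile of covered share in replicate 1 and at the 98.4 percentile in replicate 2. Xpot, 592 bp upstream on the same strand, had 14.7% and 41.8%.

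Ikbke (ENSMUSG00000042349, chr1:131254343-131279606, minus strand, 22 exons), which encodes the related kinase IKKε, had 22.2% in replicate 1 and 74.9% in replicate 2 (48.5 ± 37.3%, SD, n = 2). This was the widest difference in percentage points of any of the 10, and it put Ikbke second in replicate 1 and first in replicate 2. It had 6 and 8 peaks, beginning 6.34 and 4.09 kb from the start. All 6 peaks of replicate 1 touched replicate 2 (95.9% of bases shared), where a peak of 5.79 kb (chr1:131264354-131270144, enrichment 5.38) covered exons 12 to 15. Of the bases covered in replicate 2, 28.4% were covered in replicate 1, and 2 of its 8 peaks, including one of 1.55 kb over exon 22, touched none of replicate 1. The longest peak of Ikbke in replicate 1, at chr1:131260808-131262300, had an enrichment of 1.97 and a −log10 q of 1.06. That enrichment was the lowest of all member peaks in replicate 1. The peak held 1493 of the 5601 bases covered there, and without it the covered share would fall below the limit used above. The percentiles of Ikbke among coding genes were 93.3 and 99.0.

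Set side by side, the covered share was lower in the MyD88 arm than in the TRIF arm in each replicate. In replicate 1 the median was 4.56% over the 5 MyD88-arm genes (0% to 21.4%) and 22.2% over the 3 TRIF-arm genes (13.5% to 43.6%), a difference of -17.6 percentage points. In replicate 2 the medians were 31.2% (12.1% to 44.8%) in the MyD88 arm and 71.0% (32.5% to 74.9%) in the TRIF arm, a difference of -39.7 points. Both differences are MyD88 arm minus TRIF arm, and their mean was -28.7 ± 15.7 points (SD, n = 2). The TRIF-arm median of replicate 1 is the value of Ikbke, which includes that gene's longest and least enriched peak (enrichment 1.97). The ranges overlapped in each replicate. Of the 15 pairs of a MyD88-arm and a TRIF-arm gene, the TRIF-arm gene was higher in 13 in each replicate, and the exceptions were Ticam1 below Tirap and Irak4. Genes are not replicates and the arms hold 5 and 3 of them, so no test was made over genes.

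At the 20% limit, 1 of 5 MyD88-arm genes (Irak4) and 2 of 3 TRIF-arm genes (Tbk1 and Ikbke) were covered in both replicates, against 7.62% of coding genes. Without the bases inside Twf1, Irak4 fell below the limit in replicate 1, and no MyD88-arm gene was then counted. Without its least enriched peak of replicate 1, Ikbke would also fall below the limit in that replicate. In replicate 2 the counts were 4 of 5 and 3 of 3, against 23.3% of coding genes. Weighted by length, with covered bases summed over the arm, 8.67% and 27.9% of the MyD88 arm lay under peaks in replicates 1 and 2, and 33.1% and 68.4% of the TRIF arm. The shared genes had medians of 10.0% and 22.95%, and with them counted as MyD88-arm genes the medians of that arm were 5.58% and 26.5%. The 2 adaptor genes at the head of the arms differed less: Myd88 had 0% and 26.5%, and Ticam1 13.5% and 32.5%. With Ticam1 left out of the TRIF arm, the mean difference was -35.0 points.

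**Figure D3:**
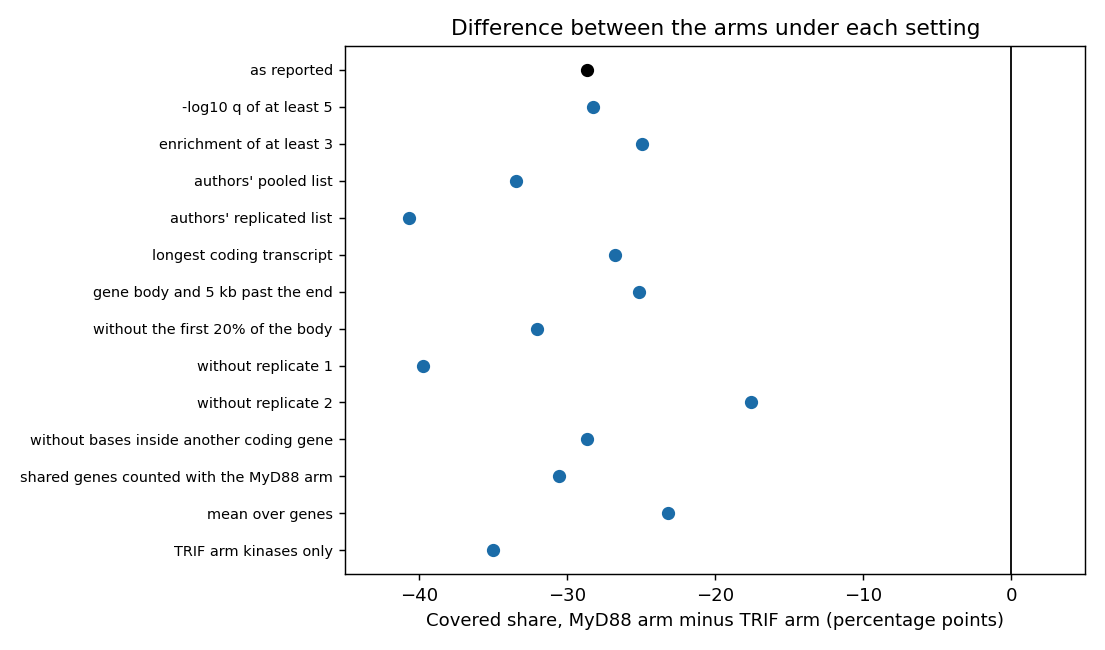
Covered share of the MyD88 arm minus that of the TRIF arm, in percentage points (horizontal axis, 0 at the vertical line), as a mean of the replicates, for the reported setting (black) and each alternative in percent (blue); the points that leave out a replicate, or use a combined list, rest on 1 list. Every point lies below 0, from -40.7 to -17.6 points, and the percentile scale, at -15.1, is not drawn.

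Gene length moves with the arms and with the measure. The median length was 38.2 kb in the MyD88 arm and 25.3 kb in the TRIF arm. Of the 4 members of 20 to 50 kb, 3 reached 20% in both replicates (Irak4, Tbk1 and Ikbke, but not Traf6), against 11.9% of coding genes of that size. Of the 3 members of 50 to 100 kb (Irak2, Irak3 and Map3k7) 0 did, against 6.17% of coding genes. Tirap did not, against 13% of coding genes of 10 to 20 kb, nor did Myd88 or Ticam1, against 4.46% of those under 10 kb. The part of gene length in the difference between the arms was not tested.

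By their means the order was Tbk1, Ikbke, Irak4, Tirap, Ticam1, Traf6, Irak2, Map3k7, Myd88 and Irak3. None of the 9 pairs of neighbours in that order differed by more than both genes' SDs, and only 3 of the 9 had the same order in both replicates (Ikbke above Irak4, Irak4 above Tirap, and Tirap above Ticam1). Over all 45 pairs, 37 kept their order between replicates and 15 differed by more than both SDs. The SDs include the difference in size between the 2 lists, which is common to both genes of a pair. Adjacent genes other than those 3 pairs changed order between replicates, so their order is not settled here. The order of the 3 pairs rests on 2 replicates only.

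The peaks lay away from the gene starts. No peak of either replicate reached the window from 250 bp before to 50 bp after the annotated start in any of them. In all coding genes that window held a peak in only 0.575%, so its absence does not set the 10 genes apart. The distance from the start to the first covered base ranged from 2.39 to 32.9 kb in the 9 genes with peaks in replicate 1 and from 1.96 to 25.4 kb in the 10 in replicate 2. The first 10% of the body was reached by peaks only in Tbk1 in replicate 1, and only in Irak4 and Tbk1 in replicate 2. No value over all coding genes is given for this or for the distances, so neither sets the 10 genes apart from others. Exons were covered more than introns in 6 of the 9 genes with a peak in replicate 1, against 70.2% of coding genes with introns and a peak. In replicate 2 this held in 9 of 10, against 75.2%. Traf6 and Ikbke went the other way in replicate 1, and Map3k7 in both replicates. Outside the records, covered bases within 5 kb in replicate 2 lay upstream of Myd88, Tirap and Ticam1 and downstream of Irak4, each on the side of a neighbouring gene with peaks, and over 3.82% of the 5 kb past the end of Ikbke.

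In all, the 10 bodies held 54 peaks in replicate 1 and 77 in replicate 2. Of these, 47 (87.0%) of replicate 1 touched a peak of replicate 2, and 36 (46.8%) of replicate 2 touched one of replicate 1. Over all peaks of the lists the shares were 90.2% and 40.9%, so the sharing in the 10 genes was near that of the lists as a whole. Peaks had a median length of 720.5 bp in replicate 1 and 1179 bp in replicate 2. Their median enrichment was 3.18 in replicate 1 and 4.17 in replicate 2, where all peaks of each list had 3.22 and 3.83. Of the members' peaks, 29 of 54 and 48 of 77 touched an exon of the longest coding transcript. No such share is given for all peaks, and peaks of replicate 2 were longer, so these counts are descriptive only. Within a list the enrichments fell largely on a ladder of fixed steps, 0.136 in replicate 1 and 0.174 in replicate 2. Of the member peaks, 38 of 54 and 56 of 77 stood within 0.01 of a whole number of steps. Over all peaks of the lists, 79.0% in replicate 1 and 73.0% in replicate 2 did. Equal enrichments in different genes, such as 5.38 for a peak of Irak4 and one of Ikbke, are therefore steps of this scale.

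**Figure D4:**
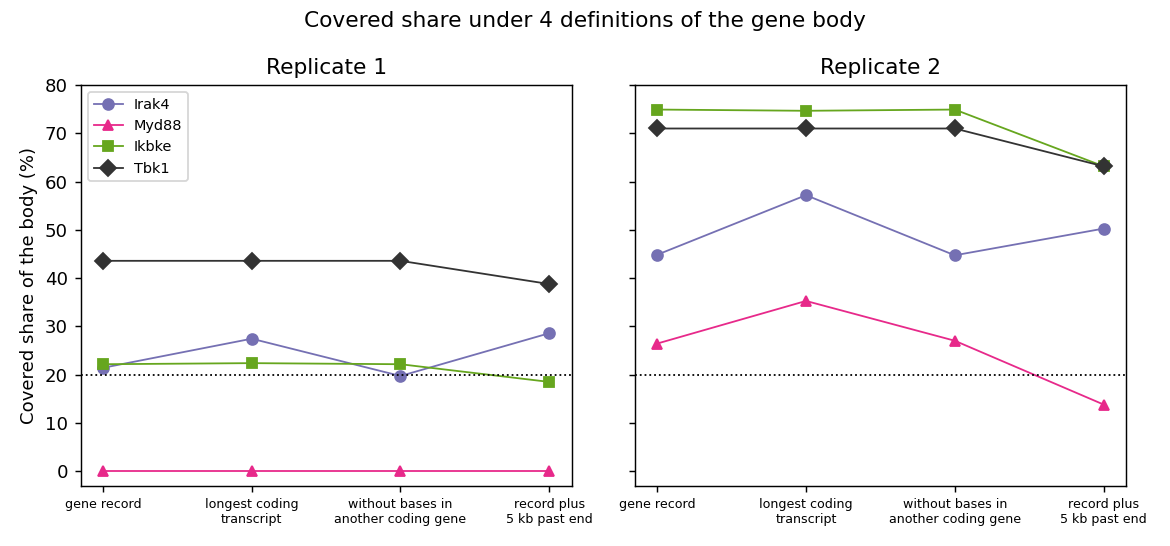
Covered share (vertical axis, %) of 4 genes under 4 definitions of the gene body, in replicate 1 (left) and replicate 2 (right), with the 20% limit dotted. Tbk1 stays above the limit under every definition, Irak4 drops to 19.7% in replicate 1 without bases inside another gene's longest coding transcript, and Ikbke drops to 18.5% in replicate 1 with 5 kb past the end added.

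The definition of the body changed which genes passed the limit. On the longest coding transcript the same 3 genes reached 20% in both replicates, Irak4, Tbk1 and Ikbke. With 5 kb past the end added, Ikbke had 18.5% in replicate 1 and 63.2% in replicate 2, and Irak4 and Tbk1 remained. The 5 kb added to Irak4 lie inside Twf1 and were covered over 83.3% in replicate 1 and 91.6% in replicate 2. With them Irak4 had 28.6% and 50.3%, so its pass under this definition includes bases of a neighbouring gene. With the first 20% of the body left out, Tirap, Tbk1 and Ikbke passed. Only Tbk1 reached 20% in both replicates under each of these definitions and under both peak filters tried (a −log10 q of at least 5 and an enrichment of at least 3).

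The rest of the pathway, 48 genes listed by role, gives the setting for these values. The medians of the 10 adaptors and kinases, 13.9% and 31.9%, stood beside medians of 6.84% and 32.2% over those 48. Of the 48, 12 reached 20% in both replicates, 30 reached it in replicate 2, and 9 had no peak in either. Over all coding genes 7.62% reached it in both replicates and 23.3% in replicate 2, and 61.4% had no peak in either. By role, the limit was reached in both replicates by 2 of 15 receptors and co-receptors, 3 of 17 other adaptors and kinases, 1 of 5 inhibitors, 2 of 3 genes of the IκB kinase complex and 4 of 8 transcription factor genes. In replicate 2, where 9 of the 10 members reached it, so did all 8 transcription factor genes and 7 of 15 receptors and co-receptors.

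The 4 highest of the list were Usp18, an inhibitor of interferon signalling, with 58.6% in replicate 1 and 75.7% in replicate 2, Rela with 56.0% and 67.6%, Tlr1 with 50.4% and 58.2%, and Nfkb2 with 43.7% and 59.2%. By its mean of 57.3%, Tbk1 would stand between Rela and Tlr1, and Ikbke, at 48.5%, just after Nfkb2. The 3 lowest, by symbol among those without any peak, were Cd14, Peli3 and Ripk3. Another kinase gene of the MyD88 complex, Irak1, which lies on the X chromosome and was singled out after its values were seen, had 0% and 5.11%, below Irak2 and Irak4. All 6 X-linked genes of the list (Ikbkg, Irak1, Tab3, Tlr13, Tlr7 and Tlr8) had at most 2.09% in replicate 1 and 9.82% in replicate 2. Some autosomal genes of the list, also picked after their values were seen, were as low, such as Tlr4 (0.542% and 6.05%) and Ube2n (0% and 1.29%). None of the 10 members lies on the X chromosome, and a part of that chromosome in these values was not tested.

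For each of the 9 genes with peaks in both replicates, the gene with the most similar distribution of covered share was found among 17764 other coding genes of at least 5 kb. The measure was the mean absolute difference over 20 values, 10 bins of the body in each replicate, and is a description within these 2 libraries. Since this difference grows with the coverage of a gene, it is also given as a percent of the median difference over all candidates. For each gene that median was close to the gene's own mean covered share, as with 57.3 points and 57.3% for Tbk1. The percent therefore scales the difference to coverage and does not show how unusual a match is. The nearest gene to Ikbke was Ttf1, at 10.3 percentage points (21.2% of the median), and to Ticam1 it was Mrpl35, at 5.78 points (25.2%). Gm12353 was nearest to Tbk1, at 15.0 points (26.1%), and Elac1 to Tirap, at 7.28 points (26.7%). The percents were higher for the others. Hdhd2 was nearest to Irak2 at 7.09 points (39.6%), Phkg1 to Irak3 at 3.02 (40.9%) and Ppil4 to Irak4 at 13.8 (41.7%). Prkaca was nearest to Traf6 at 9.21 (50.5%) and Plekhm3 to Map3k7 at 8.03 (54.7%). Within the set the nearest pair was Tirap and Ticam1, 8.40 points apart, both without a covered base in the first 40% of the body. Tbk1 and Ikbke were each other's nearest member, at 22.1 points.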

How the data were processed

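The study mapped H3K36me3 by ChIP-seq in 2 replicates of 1 group. Per the file headers, the authors deposited, on mm10, a pseudoreplicated peak list for each replicate, a pooled list and a replicated list. The aligner and the caller were not given in the sources used here. Peaks carry, as deposited, an enrichment ratio over background, a −log10 p, a −log10 q, a display score and a summit offset, all the authors' values. Depth is unknown.

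Gene bodies came from GENCODE M21 (GRCm38, the same assembly as mm10), and the percent of each body under peaks was computed per replicate. A gene counted as covered at 20% or more. Sequences were read from GRCm38.p6. Arms were assigned from textbook roles. The members and lists were chosen with earlier results of these data known. Named genes were all members, the 4 highest and 3 lowest of the other pathway list, genes overlapping or within 5 kb of a member, and for each member with peaks in both replicates the gene most alike over 10 bins; others are said to be chosen after their values were seen. A peak touched another when they shared any base. Percentiles give ties their middle rank. No test across samples was possible.

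Alternatives kept only peaks with an enrichment of 3 or more, or with a −log10 q of 5 or more, or used the combined lists, other gene bodies, limits of 10% and 50%, each replicate alone or other arm summaries. Added after seeing the data were the percentile scale and a body without the bases inside another coding gene's longest coding transcript, unless that transcript holds the whole member; bases shared only with other transcripts of a neighbour were kept. Computations used Python 3.11.15, numpy 2.4.6 and scipy 1.17.1, and were tested on simulated data.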

Additional observations from a re-analysis of the deposited data

How the results depend on the processing

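The number of members covered over at least 20% in both replicates was 3 as reported, against 7.62% of coding genes. It was 1 (Tbk1) with a −log10 q of at least 5, against 1.44% of coding genes, and 1 (Tbk1) with an enrichment of at least 3, against 4.86%. It was 9 in the authors' pooled list, against 25.1%, and 9 in their replicated list, against 24%. It was 6 at a limit of 10%, against 15.2%, and 0 at a limit of 50%, against 0.411%. It was 9 without replicate 1, against 23.3%, and 3 without replicate 2, against 7.65%. Other definitions of the gene body gave 2 or 3, against 6.23% to 9.88%. The mean over replicates of the arm median was 17.9% in the MyD88 arm (4.56% to 31.2% with a replicate left out) and 46.6% in the TRIF arm (22.2% to 71.0%). On the scale of percentiles among coding genes, added after seeing the data, the values were 80.7 in the MyD88 arm and 95.9 in the TRIF arm. The difference, MyD88 arm minus TRIF arm, was -28.7 points, lay between -40.7 and -17.6 points under the other settings in percent (-39.7 to -17.6 with a replicate left out), and was -15.1 on the percentile scale. Of 80 alternative values of single members, not counting those that leave out a replicate, 9 moved up and 2 down by more than 1 SD between replicates. Traf6 had 36.7% and 39.4% in the combined lists, and Map3k7 32.8% and 32.9%. The cause of these changes was not tested.

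Limits: with 2 replicates of 1 group, whose lists differ in length, the SD of a covered share is itself poorly known and sets no upper limit on its error. Depth, unknown here, limits what a missing peak can show. No paired analysis was possible because there is 1 group.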

Other observations

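Some peaks of the authors' combined lists lay in the 10 genes and touched no peak of either replicate. The pooled list had 14 such peaks in 5 genes, Irak2, Irak3, Irak4, Traf6 and Map3k7, and the replicated list had 20 in 7 genes, these 5 with Tirap and Tbk1. The one with the highest enrichment, 3.88 with a −log10 q of 10.6, was listed in both, in Map3k7 at chr4:31979650-31980016. Myd88, Ticam1 and Ikbke had none in either list.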
